A study of Mus musculus with 2 samples.

Results

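MicroRNAs (miRNAs) are short RNAs that are cut from hairpin precursors and lower the output of messenger RNAs that match their seed. The genes described here are Mir204 and Mir211, which encode the closely related miR-204 and miR-211 and lie inside introns of the channel genes Trpm3 and Trpm1. They were taken by Ensembl identifier from the deposited gene tables, and both of the 2 genes had a row among 1973 miRNA genes. The tables cover forebrain from healthy mouse embryos of the B6NCrl strain at 12.5 days, untreated as far as the labels say, in 1 group with 2 libraries. Replicate 2 was made from a pool of 68 embryos and replicate 1 from a pool of 120 embryos, each pool of mixed sex and each library from RNA below 30 nt. The labels name a separate biosample for each pool and 1 shared donor record. A difference between pools cannot be told apart from one in dissection, library making or sequencing, because each pool gave 1 library. The labels do not state whether choroid plexus, eye tissue or meninges were kept with the forebrain.

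Both miRNAs are known from epithelia of neural origin. In adult mouse brain miR-204 is typical of the choroid plexus, the epithelium that makes cerebrospinal fluid and begins to form in the ventricles around this stage. It also acts in the eye, where miR-204 and miR-211 favour the differentiation of retinal pigment epithelium and miR-204 limits Meis2 during lens and retina development. Trpm1, also called melastatin, encodes a cation channel of melanocytes and retinal bipolar cells, and in melanocytes the pigment cell regulator MITF drives Trpm1 together with miR-211. Trpm3 encodes a related cation channel found in choroid plexus, retina and sensory neurons. These statements are background and were not measured here.

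The mature sequences show how alike the 2 miRNAs are. They are given as RefSeq lists them on GRCm38.p6, with the seed, bases 2 to 8, in capitals. miR-7670-3p is shown because it was the other mature miRNA with the same seed among 1738 in the table.
miR-204-5p: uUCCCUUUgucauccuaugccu
miR-211-5p: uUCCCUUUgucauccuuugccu
miR-7670-3p: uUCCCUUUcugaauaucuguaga
miR-204-3p: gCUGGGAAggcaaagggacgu
miR-211-3p: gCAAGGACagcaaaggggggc
The 5p arms of miR-204 and miR-211 were both 22 nt long and identical in 21 bases. The substitution was A17U, with the base of miR-204-5p first and positions counted from 1 at the 5′ end. The shared seed pairs with AAAGGGA in a messenger RNA. The 3p arms were less alike, with 14 identical bases of 21 and different seeds. Mir7670, the gene of miR-7670-3p, had 0 reads in both libraries.

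The hairpins differ more than their 5p arms do. They are printed with the mature 5p and 3p arms in capitals, because the deposited tables count each hairpin as a whole and do not separate the arms.
Mir204: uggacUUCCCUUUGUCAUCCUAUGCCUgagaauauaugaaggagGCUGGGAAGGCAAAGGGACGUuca
Mir211: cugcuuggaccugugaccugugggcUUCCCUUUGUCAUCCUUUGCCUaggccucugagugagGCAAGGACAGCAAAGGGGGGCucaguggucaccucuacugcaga
Mir204 (ENSMUSG00000065507.2 in the tables, version 3 in GENCODE M21) lies on the plus strand at chr19:22750605-22750672 of mm10. Its annotated hairpin is 68 nt long, and the predicted minimum free energy of its fold was -33.7 kcal/mol. Mir211 (ENSMUSG00000065585.1) lies on the plus strand at chr7:64205806-64205911, with a longer hairpin of 106 nt and a predicted free energy of -57.6 kcal/mol. In both hairpins 19 bases of the 5p arm were paired in the predicted fold.

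Each hairpin lies on the strand of its host and outside its exons. Trpm3 has 24 annotated transcripts, of which 18 span Mir204, and in all 18 the hairpin is intronic. The shortest of these introns runs from 22749846 to 22766633 on chromosome 19 and is 16.8 kb long. Trpm1 has 23 annotated transcripts, of which 12 span Mir211, and in all 12 the hairpin is intronic. The shortest such intron runs from 64204594 to 64208275 on chromosome 7 and is 3.68 kb long. No other miRNA gene with a row lies within Trpm3. Trpm1 holds 1 other, Mir6416, which is 44.1 kb from Mir211 and had 0 reads in both libraries. The level that 3 counts give, 0.682 CPM in replicate 2 and 0.692 in replicate 1, is the upper limit for a gene without reads. The messenger RNAs of Trpm3 and Trpm1 were not measured by this assay.

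The libraries held 4397107 assigned reads in replicate 2 and 4333194 in replicate 1, counted on the strand of the gene. Each level below is a count per 1000000 assigned reads (CPM). For the labelled tissue, 11 forebrain progenitor and neuron miRNAs were read, of which 10 had a row. Together these reached 28523 CPM in replicate 2 and 28978 in replicate 1. The 5 Hox cluster miRNAs, typical of hindbrain and trunk, summed to 168.7 CPM in replicate 2 and 178.6 in replicate 1. Copies of the miR-196a genes among them share their mature sequence, and reads matching several places stood outside the counts. With 1 group there is no other tissue to compare, so these sums are no test of the labelled tissue. The forebrain sum rested on Mir92b and Mir137. By the adjusted p of Fisher's exact test, described below, 3 of the 10 were higher in replicate 2 and Mir153 lower. Mir153 stood at 2251 CPM in replicate 2, against 3304 CPM in replicate 1. Of all tested genes 20.2% passed as higher and 12.5% as lower. The miR-124 genes, whose copies share their mature sequence, were at or under 7.05 CPM in both libraries, and Mir9-1 had no row.

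Mir204 was a moderately abundant miRNA gene of this tissue, and Mir211 a scarce one. Mir204 was read 4319 times in replicate 2 and 2546 times in replicate 1. This gave 982.2 CPM in replicate 2, with a 95% Poisson interval of 953.2 to 1012, and 587.6 CPM in replicate 1, with an interval of 565.0 to 610.8. Its mean was 784.9 ± 279.1 CPM (SD, n = 2), and it held 0.0982% of assigned reads in replicate 2 and 0.0588% in replicate 1. Mir211 was read 384 times in replicate 2 and 46 times in replicate 1. Its level was 87.3 CPM in replicate 2, with an interval of 78.8 to 96.5, and 10.6 CPM in replicate 1, with an interval of 7.77 to 14.2. The mean of Mir211, 49.0 ± 54.2 CPM (SD, n = 2), therefore describes neither library. Neither gene had a read on the opposite strand in either library. The lower Mir204 value lay above the higher Mir211 value, so the order of the 2 genes was the same in both pools. Both 5p arms have the same length, and no scaling by length was applied.

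**Figure D1:**
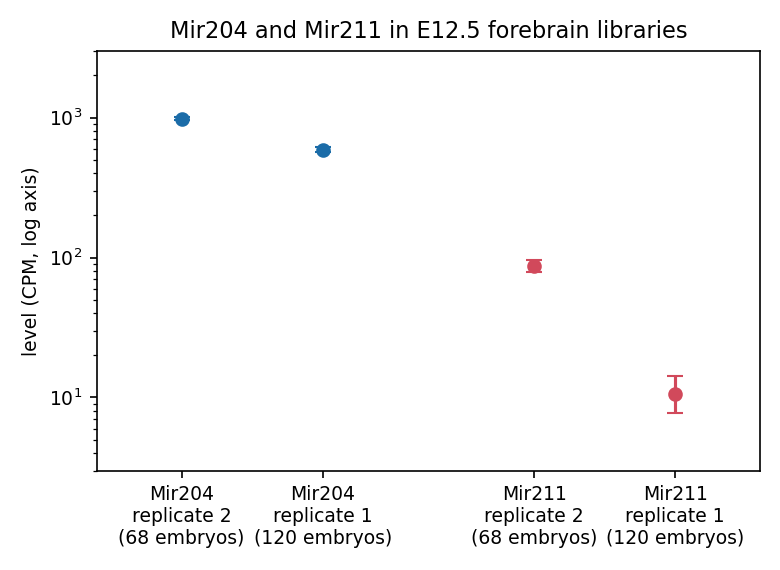
Level of Mir204 and Mir211 in each library, in CPM on a log axis; each point is 1 library and bars are 95% Poisson intervals, which cover counting error only. Mir204 stood at 982.2 CPM in replicate 2, against 587.6 CPM in replicate 1, and Mir211 at 87.3 CPM in replicate 2, against 10.6 CPM in replicate 1.

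In the order of all 1973 genes by mean level, Mir204 took place 117 and Mir211 place 253. Of the 1973, 1210 had no read on the gene strand in either library. These places therefore lie among 763 genes with reads. Mir204 stood at place 106 in replicate 2 and 132 in replicate 1. Mir211 differed more, with place 238 in replicate 2 and 314 in replicate 1. The genes next above Mir204 by mean level were Mir16-2 at 785.7 ± 52.4 CPM, Mir665 at 787.4 ± 112.6 CPM and Mir27b at 806.5 ± 35.7 CPM (SD, n = 2 each). Those next below were Mir210, a miRNA induced by low oxygen, at 758.5 ± 13.8 CPM, Mir28a at 745.7 ± 90.4 CPM and Mir501 at 732.1 ± 54.7 CPM. The values of all 6 lay inside the range of Mir204. Because these genes were picked for a mean close to that of Mir204, this is no test of a difference. Mir211 stood between Mir152, at 50.8 ± 12.8 CPM, and Mir199a-2, at 47.8 ± 11.2 CPM. The 3 genes above it and the 3 below it also lay inside its own range, which is likewise no test. In contrast to these neighbours, Mir204 and Mir211 each had a larger SD than any of the 6 genes beside them.

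**Figure D2:**
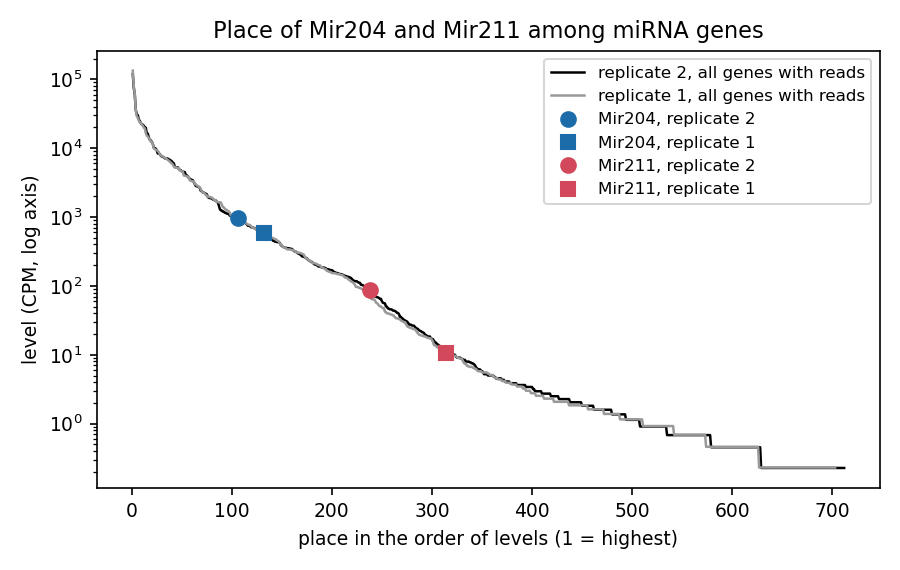
Level in CPM, on a log axis, against the place of each gene in the order of levels; lines are all genes with reads in 1 library, circles replicate 2 and squares replicate 1. Mir204 took place 106 in replicate 2 and 132 in replicate 1, and Mir211 place 238 in replicate 2 and 314 in replicate 1.

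Both genes were higher in replicate 2, and by very different amounts. Mir211 was 8.23-fold higher in replicate 2, with a 95% interval of 6.05 to 11.4 from the reads alone. On the scale of log2(CPM + 1) its ratio of replicate 2 to replicate 1 was 2.93, with a Benjamini-Hochberg adjusted p of 3.24e-65 by Fisher's exact test over 511 genes. Mir204 was 1.67-fold higher, with an interval of 1.59 to 1.76, a log2 ratio of 0.74 and an adjusted p of 1.32e-95 by the same exact test. The test compares these libraries and not conditions, and it counts reads as independent, so it takes no account of variation between libraries. Of the 511 genes, 32.7% passed an adjusted p of 0.05, and 20.2% did so with a higher level in replicate 2 and 12.5% with a lower one. Genes with more reads pass at smaller ratios, and these shares are not matched for level. A call was therefore also asked to reach a 2-fold difference, which 2.74% of genes did in either direction and 2.15% in the direction of replicate 2. Mir211 met this rule and Mir204 did not. In bulk tissue, more cells of a type and more of the RNA in each cell cannot be told apart.

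On the log2(CPM + 1) scale Mir211 had the largest ratio of the 511 tested genes in either direction. With a pseudocount of 0.1 in place of 1 Mir206 stood above it, and as a plain ratio of CPM Mir206 was 8.87-fold higher in replicate 2, with an interval of 4.99 to 17.2. The next ratios were those of Mir206, at 2.79, and Gm23935, at 1.60, on the higher side, and Mir200a, at -1.79, on the lower side. Among 50 other genes whose mean level lay within 2-fold of that of Mir211, log2 ratios ran from -0.35 to 0.91 and none was as large as that of Mir211. For Mir204, 30 genes had a higher ratio, and 47 other genes had a log2 ratio of at least its size in either direction. Among 65 other genes within 2-fold of the level of Mir204, 4 had a ratio of at least its size, namely Mir1298 at 0.85, Mir200a at -1.79, Mir181a-2 at -0.77 and Mir101a at -0.91. The median log2 ratio over all 511 genes was 0.04, and the median size of the ratio was 0.20. The common biological coefficient of variation between the libraries, estimated by edgeR over 403 genes with at least 10 reads in each, was 16.5%.

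**Figure D3:**
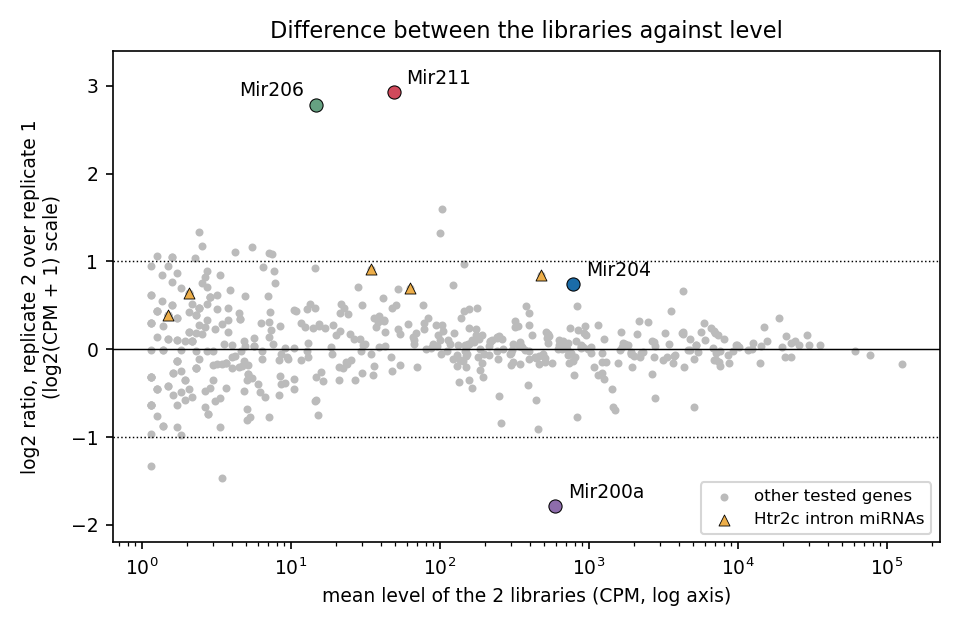
Log2 ratio of replicate 2 over replicate 1, on the log2(CPM + 1) scale, against mean level in CPM on a log axis for 511 genes; dotted lines mark a 2-fold difference on this scale. Mir211, at 2.93, lies above the other tested genes, and Mir204, at 0.74, lies near Mir1298, at 0.85, among genes of its level.

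The balance between the 2 genes differed between the pools. Replicate 2 held 11.2 Mir204 reads for each Mir211 read, with an exact interval of 10.1 to 12.5, against 55.3 in replicate 1, with an interval of 41.4 to 75.8. Mir211 thus made up 8.17% of the reads of the pair in replicate 2 and 1.77% in replicate 1. The odds ratio was 4.92, with an interval of 3.60 to 6.86 and p = 1.45e-33 by a two-sided Fisher's exact test on the 4 read counts. This ratio is free of library size. Mir204 and Mir211 reads that end before base 17 of the 5p arm cannot be told apart by sequence, since the first 16 bases are the same, and this was the longest run that either 5p arm shared with any of 2201 other annotated hairpins. How many reads are that short cannot be read from the gene counts. Reads matching several places stood outside the counts of both genes. Together the pair reached 1069.6 CPM in replicate 2, against 598.2 CPM in replicate 1.

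Genes that differed between the libraries like Mir204 and Mir211 were listed by the gap in log2 ratio, a likeness over 2 samples that many genes can share. The closest to Mir204 were Mir129-2 at 0.73, Mir6538 at 0.75, Mir6935 at 0.75, Mir129-1 at 0.71 and Mir6988 at 0.77. Of these, Mir129-2 stood at 153.1 CPM in replicate 2, against 91.6 CPM in replicate 1. It passed the adjusted p by Fisher's exact test, at 1.33e-15, as did Mir129-1, at 3.39e-04, while the other 3 did not. For Mir211 the closest was Mir206, a miRNA of skeletal muscle, with 117 reads in replicate 2 and 13 in replicate 1. The further 4, Gm23935, Gm25911, Mir6236 and Mir6399, were further off, with gaps to Mir211 of -1.33 and beyond on the log2 scale. Replicate 2 held 3.28 Mir211 reads for each Mir206 read, with an exact interval of 2.66 to 4.07, and replicate 1 held 3.54, with an interval of 1.88 to 7.14. This pair was chosen after its values were seen.

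Other miRNAs that are known from choroid plexus were read beside Mir204. The 5 miRNAs in introns of Htr2c, a serotonin receptor gene with high expression in choroid plexus, summed to 736.4 CPM in replicate 2, against 410.8 CPM in replicate 1. All 5 had a positive log2 ratio, with a median of 0.70. By Fisher's exact test 3 passed the adjusted p as higher in replicate 2 without reaching 2-fold, against 20.2% of all tested genes. Mir764 and Mir1912 did not pass, and the sign of their ratios rests on few reads. Mir764 was read 8 times in replicate 2, against 5 in replicate 1, and Mir1912 12 times, against 6. The 5 genes share the same host gene, so their ratios do not count as separate observations. Mir1298 was the highest of them, with 608.6 CPM in replicate 2, against 337.2 CPM in replicate 1. Its fold was 1.81, with an interval of 1.69 to 1.93, beside 1.67 for Mir204. Mir448 was 1.64-fold higher and Mir1264 1.92-fold higher. Mir204 gave 1.61 reads for each Mir1298 read in replicate 2, with an exact interval of 1.54 to 1.69, and 1.74 in replicate 1, with an interval of 1.63 to 1.86. For each Mir449a read there were 0.186 Mir204 reads in replicate 2 and 0.176 in replicate 1. For each Mir34c read there were 1.59 in replicate 2 and 0.952 in replicate 1, so this ratio was not steady. These pairs were chosen with their values known. Mir211 did not keep such a ratio, with 0.143 reads for each Mir1298 read in replicate 2 and 0.0315 in replicate 1. The 5 miR-34b, miR-34c and miR-449 genes, which act in multiciliated cells such as those of the choroid plexus, had a median of 0.47. The miR-449 genes lie in 1 cluster and Mir34b and Mir34c in another, so the 5 do not count as separate observations. Mir449a and Mir449b passed the adjusted p as higher in replicate 2. Mir449b had 39 reads in replicate 2, 18 in replicate 1 and a 2-fold difference. Mir34b, with a log2 ratio of -0.22, did not pass. Mir449a stood at 5277 CPM in replicate 2, against 3330 CPM in replicate 1, whereas Mir34c stood at 616.8 CPM in replicate 2 and 617.3 in replicate 1, with a log2 ratio of -0.0013. The median over all 511 genes, given above, was 0.04. Whether the amount of choroid plexus in each pool had a part in the Mir204 values was not tested.

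Lists for eye, muscle, mesenchyme, epithelium and blood did not share 1 direction. The eye and sensory organ genes Mir96, Mir182 and Mir183 passed the adjusted p as lower in replicate 2, a direction in which 12.5% of all tested genes passed. They belong to 1 cluster, so their ratios do not count as separate observations. Mir184 was not called, with 16 reads in replicate 2 and 7 in replicate 1. The eye and sensory organ list summed to 4106 CPM in replicate 2, against 5115 CPM in replicate 1. The muscle list, which holds Mir206, had rows for 8 of 9 genes and summed to 53.4 CPM in replicate 2, against 33.2 CPM in replicate 1. Of its 4 tested genes Mir206 was called and Mir208a, Mir208b and Mir499 had ratios from -0.48 to -0.05, while Mir133a-1 and Mir133a-2 had 0 reads and Mir1a-1 and Mir133b had 1 read each over both libraries. Copies of the miR-1 and miR-133a genes share their mature sequence, and reads matching several places stood outside the counts.

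Mesenchymal miRNAs, which mark meninges and head mesenchyme, were higher in replicate 2 by the adjusted p in 6 of 7 genes, beside 20.2% of all tested genes. That share is not matched for level. Mir140, with 21903 reads in replicate 2 and 19929 in replicate 1, passed at a log2 ratio of 0.12. Mir199a-2 and Mir214 lie in 1 cluster and Mir143 and Mir145a in another, so the 7 genes do not count as separate observations. The list had a median of 0.47 and a sum of 16134 CPM in replicate 2, against 13294 CPM in replicate 1. Its largest log2 ratio, 0.61 for Mir199a-1, was below that of Mir204. Mir199a-1, with 27 reads in replicate 2 and 16 in replicate 1, was the gene of this list that did not pass. Among those that passed the largest ratio was 0.50, for Mir145a. Surface epithelium and miR-200 genes had a median of -0.65 over 7 genes, with a sum of 10008 CPM in replicate 2, against 13628 CPM in replicate 1. In this list Mir203 and Mir205, of the skin epithelium, were higher in replicate 2 by the adjusted p and the 5 miR-200 genes lower. Among all tested genes 20.2% passed as higher and 12.5% as lower. The miR-200 genes lie in shared clusters, so they do not count as separate observations. The endothelial gene Mir126a had a log2 ratio of 0.35. Blood miRNAs summed to 690.5 CPM in each library and had a median of 0.46 over 5 tested genes, with no row for Mir142. The most abundant of them by mean level, Mir451a, was lower in replicate 2 by the adjusted p. It stood at 202.9 CPM in replicate 2, against 293.1 CPM in replicate 1. Mir223 and Mir144 passed as higher, with Mir144 at 35.5 CPM in replicate 2, against 24.7 CPM in replicate 1. Mir144 and Mir451a lie in the same cluster, yet their ratios had opposite signs. The part of these tissues in the values of Mir204 and Mir211 was not tested. No list of other miRNAs was set up for melanocytes or pigment epithelium.

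**Figure D4:**
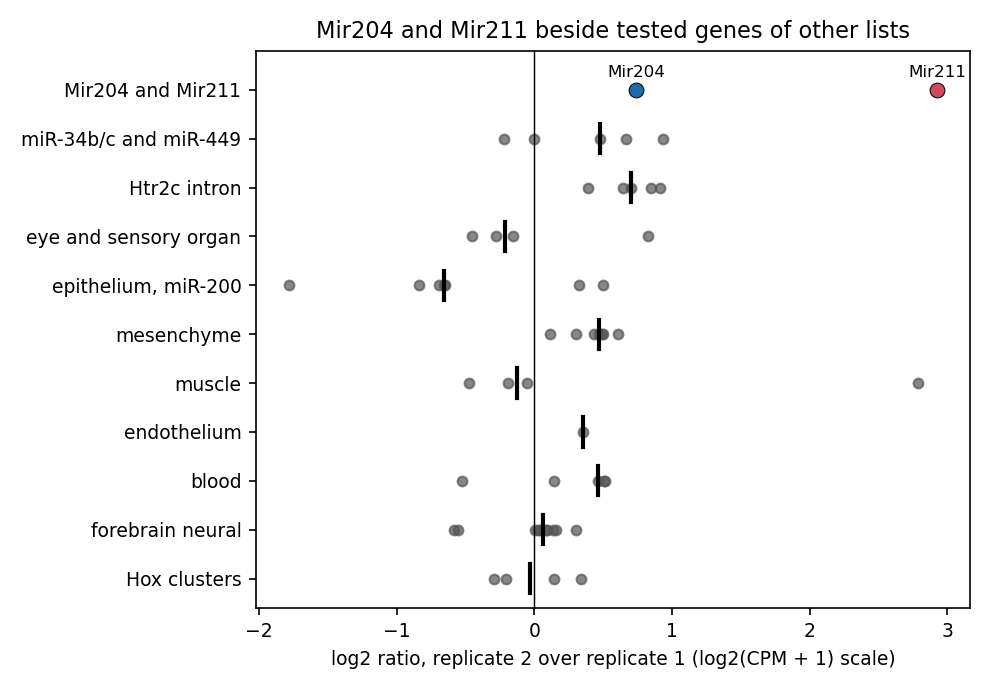
Log2 ratio of replicate 2 over replicate 1, on the log2(CPM + 1) scale, for Mir204, Mir211 and the tested genes of 10 lists; grey points are genes and black bars list medians. The Htr2c intron genes, with a median of 0.70, lie around Mir204, and the muscle gene Mir206, at 2.79, lies nearest to Mir211.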

How the data were processed

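The authors deposited raw read counts per miRNA gene, 1 table a library, made from alignments to mm10 with annotation M4 per the deposited notes. The aligner, the counting tool and the trimming were not stated by any source used here. Each table has 3 count columns (both strands, gene strand, opposite strand), identified from the values, and the gene strand was used. The 4 rows that name no gene were left out; reads matching several places were 37.9% of all reads in both libraries, unmapped reads 16.8% in replicate 2 and 17.5% in replicate 1, and reads in no feature 5.93% in replicate 2 and 5.49% in replicate 1. Names and positions came from GENCODE M21 by Ensembl identifier (1894 of 1973 matched) and sequences from RefSeq on GRCm38.p6, where both members matched.

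CPM used gene-strand assigned reads. Genes with 10 or more reads over the 2 libraries were tested by Fisher's exact test with Benjamini-Hochberg adjustment, since 1 group allows no edgeR contrast; a call needed a 2-fold difference and an adjusted p under 0.05. The step was tested on simulated data. Intervals, exact at 95%, and the floor of 3 counts cover counting error only. Named were both members, 3 genes beside each in level, the 5 closest in ratio, the highest called ratios and list genes; genes of like level and Mir200a were picked for naming once their values were known. The members and lists were chosen with earlier results of these data known. Software was Python 3.11.15, SciPy 1.17.1, R 4.3.3, edgeR 4.0.16, DESeq2 1.42.0 and ViennaRNA 2.7.2.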

Additional observations from a re-analysis of the deposited data

How the results depend on the processing

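The log2 ratio of Mir211 stayed between 2.24 and 3.03 under 9 alternatives (strand column, 4 library sizes, minimum reads and pseudocount), and it was called under each. By size of the log2 ratio Mir211 held place 1 under 8 of the 9 and place 2, after Mir206, with a pseudocount of 0.1. That of Mir204 stayed between 0.69 and 0.75 under the same 9 and never reached 2-fold, with a place by size from 11 to 78. The mean level of Mir204 was 308.2 CPM and that of Mir211 19.3 CPM when scaled to all reads in place of assigned reads, which follows from the larger denominator. Without one of the replicates, the level of Mir204 was 587.6 to 982.2 CPM, that of Mir211 10.6 to 87.3 CPM, and the Mir204 to Mir211 ratio 11.2 to 55.3 around a mean of 33.3. The level of Mir211 and the ratio of the pair thus depend on which library is used: without replicate 1 they were 87.3 CPM and 11.2, and without replicate 2 they were 10.6 CPM and 55.3. With a minimum of 100 reads 5 genes were called, against 14, with 316 genes tested in place of 511. The replicate difference cannot be recomputed without a replicate. No paired analysis was possible because there is 1 group. The 46 reads of Mir211 in replicate 1 limit the precision of its ratio.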
